A study of Homo sapiens with 28 samples.

Results

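The ATF4 amino acid stress response was examined as a list of 42 genes in LNCaP cells, a human line of luminal prostate cancer that depends on androgen. The list was set by gene symbol, and every symbol on it was present among the 26443 genes that had a value in every RNA-seq library. It held 7 transcriptional regulators, 5 feedback genes, 1 secreted hormone with 1 lipoprotein receptor, 11 enzymes of serine, glycine, one-carbon, proline, asparagine and cysteine synthesis, 7 amino acid transporter genes, and 10 genes for tRNA charging and export. All 42 members passed the filter on low values and were tested in both RNA-seq series.

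ATF4 is a basic leucine zipper transcription factor whose mRNA is translated preferentially when the initiation factor eIF2 is phosphorylated by kinases that sense amino acid shortage, heme deficiency, viral RNA or unfolded protein in the endoplasmic reticulum. It binds DNA as a dimer, often with a C/EBP family partner, and activates genes that import amino acids, make the nonessential ones and charge tRNAs, as well as genes that feed back on the response. Because much of this control acts on translation, the mRNA levels given here describe the transcripts of the pathway and not the amount or activity of the ATF4 protein.

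The study crossed 2 manipulations, loss of *HOXB13* (a prostate-lineage homeobox factor) and loss or inhibition of the related histone acetyltransferases p300 and CBP, encoded by *EP300* and *CREBBP*. In the knockdown series, control cells (shCtrl) and *HOXB13*-KD cells (shHOXB13) were left without a further target or also received shp300, shCBP or both hairpins (shp300/CBP), giving 8 groups of 2 biological replicates. In the CCS1477 series, shCtrl and shHOXB13 cells were treated for 48 hours with DMSO or with 250 nM CCS1477, a small-molecule inhibitor of p300 and CBP, giving 4 groups of 3 biological replicates. *HOXB13* was targeted by a single shRNA in a pGIPZ lentiviral vector with its matching control vector, and *EP300* and *CREBBP* by a hairpin each in a pLKO lentiviral vector, so effects of a hairpin and of its target cannot be told apart.

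The knockdown libraries held 7458934 to 16338528 mapped reads, of which 52.7% to 74.3% lay in genes, and the CCS1477 libraries 8085754 to 14427238, of which 78.4% to 84.0% lay in genes. *HOXB13* was lower with its shRNA in both series (log2 −2.93 ± 0.17, adjusted p = 3.2e-07, and −2.22 ± 0.08, adjusted p = 1.7e-09), and it was also lower with shp300/CBP in both shCtrl (−0.81) and shHOXB13 cells (−0.80) and with shCBP alone in shCtrl cells (−0.87, adjusted p = 0.0086). *EP300* itself was lower in shHOXB13 than in shCtrl cells in both series (−0.92, adjusted p = 0.00067, and −0.86, adjusted p = 4.4e-05). *EP300* with shp300/CBP was lower in shCtrl cells (−0.90, adjusted p = 0.0023) but did not pass the test in shHOXB13 cells (−0.41, adjusted p = 0.073), and *CREBBP* likewise (−0.50, adjusted p = 0.044, and −0.27, adjusted p = 0.23). In shCtrl cells of the knockdown series *CREBBP* was at 6.44 and 5.96 FPKM without a further hairpin. It was at 8.63 and 8.92 FPKM with shp300 alone and at 3.36 and 2.96 with shCBP alone. *EP300* there was at 11.5 and 10.47 FPKM without a further hairpin and at 4.34 and 4.87 with shp300 alone. Under DMSO *CREBBP* was at 8.14, 8.93 and 10.2 FPKM in shCtrl and 4.81, 4.51 and 4.34 in shHOXB13 cells. Under CCS1477 it was at 12.9, 11.9 and 11.5 FPKM in shCtrl and 11.2, 10.4 and 9.36 in shHOXB13 cells. All 10 LNCaP markers were at 3.53 FPKM or more in each library, and of the markers of other cell types *PTPRC*, *CD3E*, *PECAM1*, *CDH5* and *TP63* stayed at or below 0.124 FPKM and *COL3A1*, *PDGFRB*, *THY1* and *KRT5* at or below 0.815. Markers with higher levels were *CD68* at 2.35 to 40.2 FPKM, *COL1A1* at 0.890 to 17.8, *KRT14* at up to 4.69 and 1 of 3 endothelial markers at up to 2.87. The replicates of shHOXB13 with shp300/CBP were the least alike of the knockdown pairs (log2 correlation over genes 0.951). The deposited library names of shCtrl replicate 1 under DMSO and CCS1477 stood apart from the rest of that series. Counts of called members in comparisons that include these libraries are also given without them, and values of single genes only in part. All groups of a series share the same fit, so the unlike pair also enters the spread used in the other knockdown comparisons. Those were fitted without it only where the compared groups were fitted alone.

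To show the DNA element by which this response is usually recognized, proximal promoters were searched for the core of the C/EBP-ATF response element, TGATGNAA, and for the cAMP response element, TGACGTCA, on both strands. The windows ran from 250 bases before to 50 bases after each annotated start in RefSeq on GRCh38.p14, and 35 of the 42 members were found there, with 59 windows. *NUPR1*, *PSPH*, *SHMT2*, *ALDH1L2*, *PYCR1*, *SLC7A11* and *YARS* were not among them. Of the 35 members, 13 (37.1%) held the C/EBP-ATF core, whereas 1217 of 27305 genes in the same table (4.46%) and 1270 of 35116 windows (3.62%) did. TGACGTCA was in 1 member (2.86%), *PPP1R15A*, and in 614 genes (2.25%) or 649 windows (1.85%). The full letters of the 2 elements cannot coincide at the same position. Matches are shown for some of the genes whose values are described later. They are read 5′ to 3′ on the gene's own strand with 10 bases on each side, the matched letters in capitals. In *CHAC1*, *SLC1A4*, *AARS* and *MARS* the core lies on the opposite strand, so its reverse complement is printed.
ATF3, chr1:212565206-212565233, plus strand: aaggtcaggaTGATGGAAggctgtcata
CEBPG, chr19:33374061-33374088, plus strand: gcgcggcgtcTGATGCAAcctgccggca
CHAC1, chr15:40953252-40953279, plus strand: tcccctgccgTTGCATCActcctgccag
PPP1R15A, chr19:48872353-48872380, plus strand: cctctcttcgTGACGTCAgcacgccggg
ASNS, chr7:97872459-97872486, minus strand: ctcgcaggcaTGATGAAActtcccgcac
SLC7A1, chr13:29595664-29595691, minus strand: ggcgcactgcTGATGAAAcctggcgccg
SLC1A4, chr2:64989382-64989409, plus strand: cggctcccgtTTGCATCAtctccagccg
SLC1A5, chr19:46784894-46784921, minus strand: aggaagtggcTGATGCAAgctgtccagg
AARS, chr16:70289676-70289703, minus strand: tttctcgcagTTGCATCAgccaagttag
MARS, chr12:57488054-57488081, plus strand: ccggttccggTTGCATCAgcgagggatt

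The core began 191 bases before the start of *ATF3*, 42 before *CEBPG*, 209 before *CHAC1*, 68 before *ASNS*, 7 before *SLC1A4*, 97 before *SLC1A5*, 187 before *AARS* and 4 before *MARS*, and 8 bases after the start of *SLC7A1*. *SLC3A2*, *GARS*, *NARS* and *IARS* were the other members with a core, so that 5 of the 13 were tRNA synthetase genes and 4 were transporter genes. With *HOXB13* knockdown in the knockdown series, the median log2 difference was −0.88 over the 13 members with the core and −1.56 over the 22 without it. Of these, 11 and 18 fell at an adjusted p under 0.05, as did 30.8% of all genes. Under DMSO the medians were −1.25 (12 of 13 fell) and −1.84 (17 of 22 fell), where 42.4% of all genes fell. Under CCS1477 in shCtrl cells the medians were −1.15 (13 of 13 fell) and −0.94 (17 of 22 fell), where 9.91% of all genes fell. A match is a description of letters within these windows and was not tested against any binding data.

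In LNCaP cells with the control vector, many transcripts of the pathway were abundant. In shCtrl cells of the knockdown series, mean FPKM, which is scaled by transcript length and so can be set side by side across genes, was highest for *PHGDH* (360.0 ± 14.1, SD, n = 2), the first enzyme of serine synthesis from glycolysis. It was followed by *NUPR1* (309 ± 42.5), a small stress-induced chromatin protein, *PSAT1* (259 ± 37.4), the aminotransferase of serine synthesis, and *ATF4* itself (211 ± 17.1). Both *PHGDH* replicates lay above both *NUPR1* replicates, whereas *NUPR1* (339 and 279) and *PSAT1* (285 and 232) overlapped. The lowest members were *ALDH1L2* (0.0146 ± 0.0207), the mitochondrial formyltetrahydrofolate dehydrogenase, *CBS* (2.09 ± 0.191), the transsulfuration enzyme that makes cystathionine, and *SLC7A5* (3.57 ± 0.410), the large neutral amino acid transporter LAT1. DMSO-treated shCtrl cells had a similar order, with *PHGDH* at 276 ± 9.26 (n = 3), *NUPR1* at 251 ± 10.7 and *ATF4* at 205 ± 57.7. *ALDH1L2* was listed at 0 in 1 library and never exceeded 23 reads in any library, so it is counted but not described further.

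**Figure D1:**
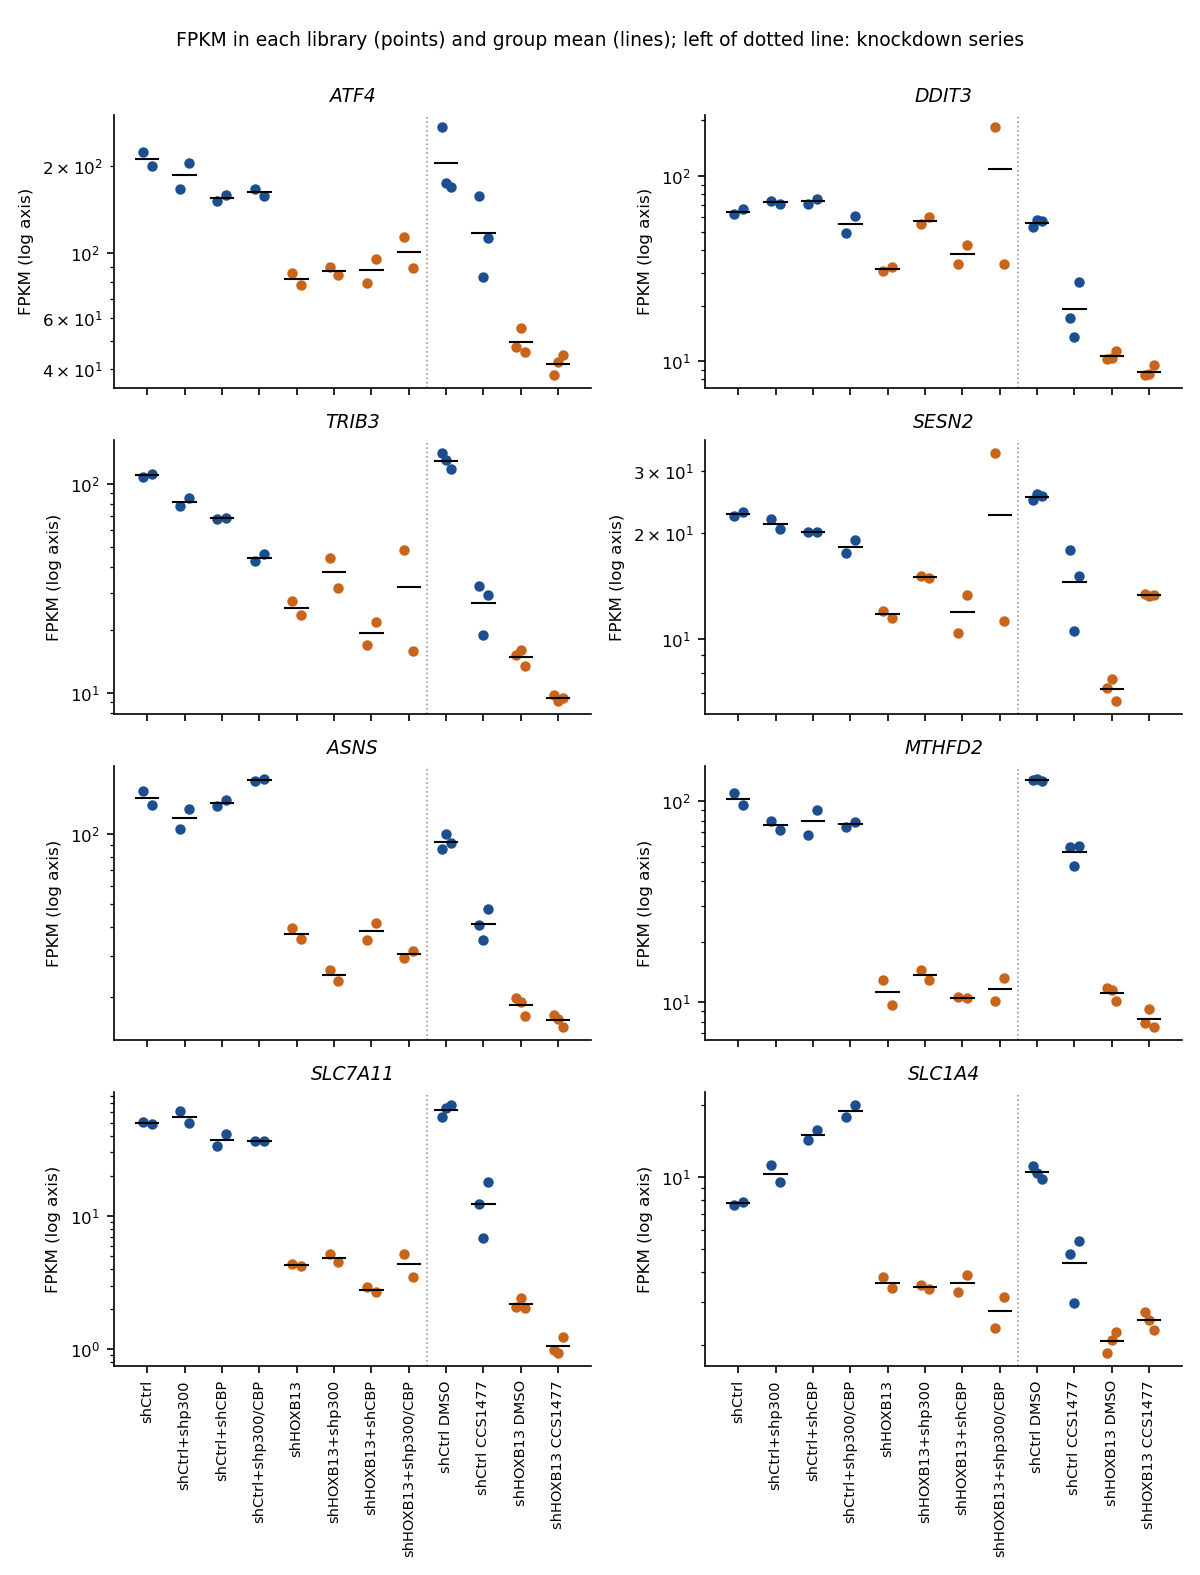
Mean level of each member in each of the 12 groups on a log2 FPKM colour scale, members ordered by role and groups by series. *PHGDH* (360 FPKM in shCtrl, 64.3 in shHOXB13) and *MTHFD2* (103 and 11.3) are lower in every shHOXB13 group than in every shCtrl group, whereas *SLC3A2* is at 175 FPKM in shCtrl and 219.7 in shHOXB13 with shp300.

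To determine how the pathway responded to *HOXB13* loss, shHOXB13 was compared with shCtrl cells in each series. In the knockdown series 34 of 42 members fell, 0 rose and 8 did not pass the test, in limma on log2(FPKM + 0.1) with Benjamini-Hochberg adjustment over 17678 genes (36 members had an unadjusted p under 0.05). Of all genes tested, 30.8% fell and 8.45% rose, and the median log2 difference was −1.10 over the members and −0.33 over all genes. In the CCS1477 series, shHOXB13 cells under DMSO had 36 members lower and 0 higher than shCtrl cells under DMSO, against 42.4% of all 15907 genes lower and 15.2% higher, with medians of −1.61 and −0.33. The median member stood at 46.3% of the shCtrl mean in the knockdown series and at 32.6% in the DMSO groups. The libraries of the 2 groups did not overlap for 39 members lower and 2 higher in the knockdown series (52.4% and 19.4% of all genes), and for 37 members lower in the DMSO groups (46.4% of all genes). The basal keratin *KRT14* moved with the groups, from a mean of 3.36 FPKM in shCtrl to 0.0565 in shHOXB13 cells, while the other basal markers *TP63* and *KRT5* stayed at or below 0.0193 and 0.333 FPKM in every library, and its part in the result was not tested. In bulk RNA, fewer cells using the pathway and less RNA per cell cannot be told apart.

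Both series, which share no library, gave falls in 31 of the members. These 31 were part of 34 falls in the knockdown series and 36 in the DMSO groups, where 27.6% of the 15751 genes tested in both fell in both. *ATF5*, *WARS* and *NARS* passed as falls in the knockdown series and not in the DMSO groups, *ATF3*, *DDIT3*, *NUPR1*, *SLC3A2* and *ALDH1L2* in the DMSO groups and not in the knockdown series, and *PPP1R15A*, *VLDLR* and *ALDH18A1* passed in neither. Whether the effect differed between series was not tested. The *ALDH1L2* fall was lost without replicate 2 or 3 of shCtrl DMSO or replicate 1 or 2 of shHOXB13 DMSO (adjusted p = 0.085 to 0.15). The all-gene median of −0.33 is itself a matter of scaling. After median-of-ratios scaling, which sets that median near 0, 30 members fell and 1 rose in the knockdown series (15.6% and 17.4% of all genes), and 34 fell and 3 rose under DMSO (26% and 27.2%), with member medians of −0.70 and −1.27.

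**Figure D2:**
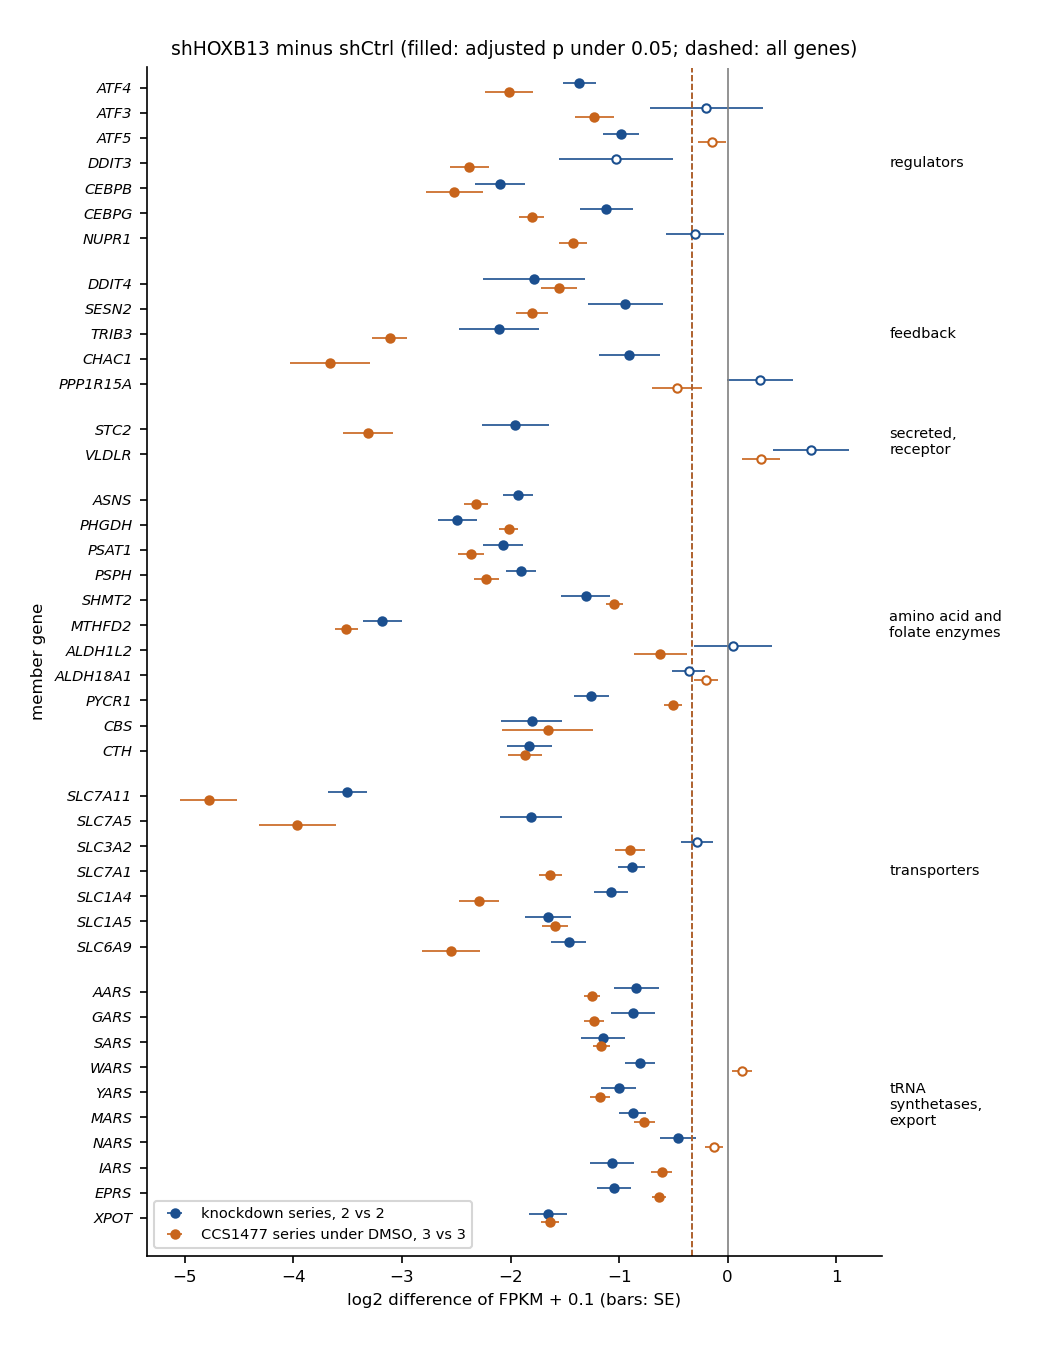
Log2 difference of shHOXB13 from shCtrl for each member in the knockdown series (horizontal axis) and in the DMSO groups of the CCS1477 series (vertical axis), coloured by role. Most members lie below 0 on both axes, with *SLC7A11* (−3.50 and −4.78) farthest out and *VLDLR* (0.77 and 0.31) on the other side.

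Among the regulators, *ATF4* stood at 223 and 199 FPKM in the shCtrl replicates and at 85.5 and 78.2 in the shHOXB13 replicates. The groups did not overlap, and *ATF4* mRNA fell to 38.7% of control (log2 −1.37 ± 0.15, adjusted p = 4.6e-05). Under DMSO it was 271, 174 and 169 FPKM in shCtrl and 47.6, 55.4 and 45.8 in shHOXB13 cells, a fall to 24.2% (log2 −2.01 ± 0.22, adjusted p = 1e-05). *CEBPB*, a C/EBP family partner of ATF4, was at 26 and 29.9 FPKM in shCtrl and 7.27 and 5.68 in shHOXB13 cells, and its fall (log2 −2.10 ± 0.23, adjusted p = 4e-05) was the steepest of the 7 regulators. *CEBPG*, which also dimerizes with ATF4, fell by 1.12 in the knockdown series and by 1.80 under DMSO.

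Calls for the stress-inducible regulators are given by series, with the difference between series not tested. *ATF3*, a repressor and activator induced downstream of ATF4, was at 41.8 and 35.6 FPKM in shCtrl and 32.8 and 34.5 in shHOXB13 cells of the knockdown series, a difference that did not pass the test (log2 −0.20 ± 0.52, adjusted p = 0.81). Under DMSO it was 35.8, 39.1 and 37.3 FPKM in shCtrl and 15.8, 17 and 15 in shHOXB13 cells and fell (log2 −1.23 ± 0.18, adjusted p = 0.00011). *DDIT3*, which encodes the pro-death factor CHOP, was at 62.6 and 66.3 FPKM in shCtrl and 30.6 and 32.5 in shHOXB13 cells. These *DDIT3* replicates did not overlap, yet the difference missed the threshold (log2 −1.03 ± 0.52, adjusted p = 0.14) in a fit that pools the spread of *DDIT3* over all 8 knockdown groups. When only the compared groups were fitted, the *DDIT3* fall passed (adjusted p = 0.001). Under DMSO *DDIT3* fell from 53.3, 57.8 and 57.2 to 10.3, 10.4 and 11.4 FPKM (log2 −2.38 ± 0.18, adjusted p = 5.7e-07). *NUPR1* had a log2 difference of −0.30 (adjusted p = 0.4) in the knockdown series and fell by 1.42 under DMSO, whereas *ATF5*, a short-lived relative of ATF4, fell by 0.98 in the knockdown series and had a log2 difference of −0.14 under DMSO. The exons of *DDIT3* and *MARS* overlap over 287 bases, and those of *ATF5* and *NUP62* over 305, so unstranded counting may share reads between them.

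Feedback genes restrain the response or adjust growth to it, and 4 of the 5 fell in each series. *TRIB3*, a pseudokinase that binds ATF4, was at 108 and 112 FPKM in shCtrl and 27.5 and 23.5 in shHOXB13 cells and fell (log2 −2.11 ± 0.37, adjusted p = 0.00083). Under DMSO it went from 141, 129.8 and 117 FPKM to 15.2, 16 and 13.4 (log2 −3.11 ± 0.16, adjusted p = 2.5e-08). *CHAC1*, an enzyme that degrades glutathione, was at 47.3 and 49.3 FPKM in shCtrl and 28.1 and 23.6 in shHOXB13 cells (log2 −0.91 ± 0.28, adjusted p = 0.023), and its contrast under DMSO was steeper, 31.6, 29.1 and 31.6 against 2.23, 2.34 and 2.44 FPKM (log2 −3.66 ± 0.37, adjusted p = 5.5e-06). In each of the 2 comparisons the control libraries of *TRIB3* and *CHAC1* all lay above the knockdown libraries. *DDIT4* and *SESN2*, both inhibitors of mTORC1 signaling, fell by 1.79 and 0.94 in the knockdown series and by 1.56 and 1.81 under DMSO. *PPP1R15A*, which encodes the phosphatase subunit GADD34 that reverses eIF2 phosphorylation, was low throughout, at 4.19 and 3.51 FPKM in shCtrl and 4.76 and 4.72 in shHOXB13 cells, and passed in neither series. Leaving out shCtrl replicate 1 ended the knockdown-series calls of *CHAC1* (adjusted p = 0.084), *SESN2* (0.14) and *DDIT4* (0.055). The calls of *CHAC1* and *SESN2* were also lost without any other library of the 4 (adjusted p = 0.05 to 0.16), and that of *DDIT4* without shHOXB13 replicate 2 (0.055).

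*STC2*, a secreted glycoprotein hormone, was at 44.9 and 44.2 FPKM in shCtrl and 12.5 and 10.4 in shHOXB13 cells, without overlap, and fell (log2 −1.96 ± 0.31, adjusted p = 0.00044). Under DMSO the difference was larger, with 36, 37.6 and 37.1 FPKM in shCtrl and 3.45, 3.77 and 3.64 in shHOXB13 cells (log2 −3.32 ± 0.23, adjusted p = 2.4e-07). The receptor gene *VLDLR* was the member with the highest difference, at 5.44 and 5.62 FPKM in shCtrl and 9.93 and 9.02 in shHOXB13 cells (log2 0.77 ± 0.35, adjusted p = 0.1). The *VLDLR* libraries did not overlap but the difference did not pass the test, although it did with median-of-ratios scaling (log2 1.16, adjusted p = 0.015), with FPKM rescaled to a common sum (0.97, adjusted p = 0.026) and when only the compared groups were fitted (0.77, adjusted p = 0.0048).

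The amino acid synthesis enzymes fell together in both series, 9 of 11 in the knockdown series and 10 of 11 under DMSO, with role medians of −1.83 and −1.87. The 10 included *ALDH1L2*, at 0.0687 FPKM or less in the shHOXB13 DMSO libraries, a call lost without some libraries as given above. *MTHFD2*, the mitochondrial folate enzyme that oxidizes methylenetetrahydrofolate, went from 109 and 95.5 FPKM in shCtrl to 12.9 and 9.66 in shHOXB13 cells, 11% of control (log2 −3.18 ± 0.18, adjusted p = 2.7e-07). Under DMSO *MTHFD2* went from 128, 129 and 126 FPKM to 11.8, 11.5 and 10.1 (log2 −3.51 ± 0.10, adjusted p = 4.1e-10). *PHGDH* went from 369.9 and 350.0 FPKM to 70.9 and 57.6 (log2 −2.49 ± 0.18, adjusted p = 1.7e-06). For these enzymes the lowest shCtrl library was several-fold above the highest shHOXB13 library.

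The next 2 steps of serine synthesis followed *PHGDH*. *PSAT1* fell by 2.07 in the knockdown series and by 2.37 under DMSO, and *PSPH*, the phosphatase that releases serine, by 1.90 and 2.22. *SHMT2*, which turns serine into glycine in mitochondria, fell by 1.31 and 1.04. *ASNS*, the asparagine synthetase and the classical ATF4 target, was at 153 and 133 FPKM in shCtrl and 39.4 and 35.4 in shHOXB13 cells (log2 −1.93 ± 0.13, adjusted p = 1.4e-06). Both transsulfuration genes fell as well, *CTH*, which releases cysteine from cystathionine, by 1.83 and 1.87 and *CBS* by 1.81 and 1.66. *CBS* has a near-identical copy on chromosome 21, where the first 100 bases of 29 of its 32 exons of that length occur again, so its counts are uncertain. The proline branch was split. *PYCR1*, its last enzyme, fell by 1.25 and 0.50, whereas *ALDH18A1*, its first enzyme, had log2 differences of −0.36 (adjusted p = 0.078) and −0.20 (adjusted p = 0.14). The exons of *MTHFD2* and *SLC4A5* overlap over 1324 bases and those of *PYCR1* and *MYADML2* over 330, which unstranded counting does not separate.

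Among the transporters, the largest fall of all members was that of *SLC7A11*, the cystine importer xCT. It was at 50.7 and 49.4 FPKM in shCtrl and 4.41 and 4.24 in shHOXB13 cells, 8.63% of control (log2 −3.50 ± 0.18, adjusted p = 1.2e-07). Under DMSO it went from 55, 64.6 and 68.3 FPKM to 2.06, 2.43 and 2.06, 3.48% of control (log2 −4.78 ± 0.26, adjusted p = 3.7e-08). *SLC7A5* was at 3.28 and 3.86 FPKM in shCtrl and 0.915 and 0.971 in shHOXB13 cells (log2 −1.81 ± 0.29, adjusted p = 0.00046), and at 8.03, 8.33 and 7.71 against 0.383, 0.392 and 0.494 under DMSO (log2 −3.96 ± 0.36, adjusted p = 2.1e-06), the second-largest fall in the DMSO groups. Its shHOXB13 DMSO libraries rest on 19 to 26 reads.

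The shared heavy chain of both carriers, *SLC3A2*, was far more abundant, at 169 and 181 FPKM in shCtrl and 147 and 141 in shHOXB13 cells, and its difference did not pass in the knockdown series (log2 −0.28 ± 0.15, adjusted p = 0.15) but did under DMSO (log2 −0.90 ± 0.14, adjusted p = 0.00015). The neutral amino acid carriers *SLC1A5* and *SLC1A4* fell by 1.66 and 1.08, the glycine transporter *SLC6A9* by 1.46, and the cationic amino acid transporter *SLC7A1* by 0.88. Under DMSO the same 4 genes fell by 1.59, 2.29, 2.55 and 1.63.

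All 10 genes of tRNA charging and export fell in the knockdown series and 8 under DMSO. Their role medians of −0.94 and −0.97 lay nearer 0 than those of the transporters (−1.46 and −2.29). *XPOT*, the tRNA exporter, moved most, by −1.65 ± 0.17 in the knockdown series and −1.63 ± 0.08 under DMSO, and the 9 synthetases ranged from −1.15 (*SARS*, for serine) to −0.46 (*NARS*, for asparagine) in the knockdown series. *WARS*, for tryptophan, was at 58.8 and 53.2 FPKM in shCtrl and 31.8 and 31.8 in shHOXB13 cells (log2 −0.81 ± 0.14, adjusted p = 0.00071), but under DMSO it was at 36.4, 39 and 41.9 against 46.9, 43.4 and 38.5 (log2 0.13 ± 0.09, adjusted p = 0.23). With median-of-ratios scaling *WARS*, *NARS* and *VLDLR* rose under DMSO (0.48, 0.22 and 0.65). The knockdown-series falls of *AARS*, *GARS* and *NARS* were lost without shCtrl replicate 1 (adjusted p = 0.065, 0.055 and 0.3), that of *AARS* also without shHOXB13 replicate 2 (0.053), and that of *NARS* without either shHOXB13 replicate (0.057 and 0.24).

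To ask how inhibition of the p300 and CBP bromodomains, which bind acetylated lysines, acted on the pathway, CCS1477 was compared with DMSO in each cell background. In shCtrl cells 36 of 42 members fell and 0 rose, against 9.91% of all genes lower and 15.4% higher, and the median log2 difference was −1.01 over members and 0.06 over all genes. All 3 CCS1477 libraries lay below all 3 DMSO libraries for 36 members (14.6% of all genes). The median member was at 49.6% of the DMSO mean, and 22 members were under 50%. The falls were spread over the roles, 6 of 7 regulators, 4 of 5 feedback genes, *STC2*, 8 of 11 synthesis enzymes, 7 of 7 transporters and 10 of 10 tRNA genes. With replicate number as a block, which pairs the shCtrl libraries of this comparison, 35 fell.

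*ATF4* was at 271, 174 and 169 FPKM under DMSO and 157, 82.8 and 113 under CCS1477, a fall to 57.4% (log2 −0.82 ± 0.22, adjusted p = 0.018). The third and second DMSO libraries stood close to the first CCS1477 library, so the groups were separated narrowly, and the call was lost without DMSO replicate 1 (log2 −0.59, adjusted p = 0.058) or CCS1477 replicate 2 (−0.59, adjusted p = 0.064). *ATF3* went from 35.8, 39.1 and 37.3 FPKM to 14.2, 10.8 and 21.2 (log2 −1.33 ± 0.18, adjusted p = 0.00031). *DDIT3* went from 53.3, 57.8 and 57.2 FPKM to 17.1, 13.6 and 26.8 (log2 −1.60 ± 0.18, adjusted p = 0.0001). For *ATF3* and *DDIT3* the 2 groups were clearly apart. *NUPR1*, *CEBPG* and *CEBPB* fell by 1.46, 1.52 and 1.30, while *ATF5*, at 0.36 (adjusted p = 0.055), was the regulator that did not pass.

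The largest falls with CCS1477 in shCtrl cells were in transporters and feedback. *SLC7A11* went from 55, 64.6 and 68.3 FPKM to 12.4, 6.84 and 17.9, 19.7% of the DMSO mean (log2 −2.43 ± 0.26, adjusted p = 7e-05). *SLC7A5* went from 8.03, 8.33 and 7.71 FPKM to 2.43, 0.661 and 2.09 (log2 −2.33 ± 0.36, adjusted p = 0.00068). *TRIB3* went from 141, 129.8 and 117 FPKM to 32.4, 18.9 and 29.5 (log2 −2.29 ± 0.16, adjusted p = 4.5e-06). In each of these the second CCS1477 replicate was the lowest, and all 3 CCS1477 libraries were far below the DMSO libraries. *SLC6A9* went from 15, 17 and 16.3 FPKM to 5.79, 2.44 and 5.84 (log2 −1.86 ± 0.26, adjusted p = 0.00043), and *SLC1A5*, *SLC1A4* and *SLC3A2* fell by 1.63, 1.27 and 1.14. Among enzymes, *PSAT1* (−1.33), *CTH* (−1.32), *MTHFD2* (−1.21) and *ASNS* (−1.17) fell more than *PHGDH* (−0.62) and *PSPH* (−0.57). *CBS*, *ALDH18A1*, *ALDH1L2*, *ATF5*, *PPP1R15A* and *VLDLR* were the 6 members that did not pass. The fall of *WARS* (−0.27 ± 0.09, adjusted p = 0.049) was lost without CCS1477 replicate 1 or 3 or DMSO replicate 2 or 3 (adjusted p = 0.085 to 0.16).

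In shHOXB13 cells, where most members were already low, CCS1477 moved fewer of them. Under limma 18 members fell and 4 rose, against 10.4% of all genes lower and 29.2% higher, and the median was −0.28 over members and 0.20 over all genes. This split depended on the scaling, since median-of-ratios scaling, with the all-gene median near 0, gave 29 falls and 2 rises (19% and 16.7% of all genes). The CCS1477 and DMSO libraries did not overlap for 26 members lower (15.6% of all genes) and 7 higher (39.9%).

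*ATF4* in shHOXB13 cells was at 47.6, 55.4 and 45.8 FPKM with DMSO and 38.2, 42.5 and 44.8 with CCS1477, which did not pass (log2 −0.24 ± 0.22, adjusted p = 0.41). *ATF3* was at 15.8, 17 and 15 and 12.7, 11.5 and 12.3 FPKM (log2 −0.39 ± 0.18, adjusted p = 0.11), and *DDIT3* at 10.3, 10.4 and 11.4 and 8.41, 8.51 and 9.50 FPKM (log2 −0.28 ± 0.18, adjusted p = 0.25). All CCS1477 libraries were below the DMSO libraries for these 3 regulators, by margins that did not reach the threshold. *NUPR1* fell, from 96.8, 99 and 84.7 to 54.5, 56 and 62.3 FPKM (log2 −0.70 ± 0.13, adjusted p = 0.0014). It was the single regulator called in the fit of all groups, but calls for the others depended on the fit. When only the compared groups were fitted, *ATF4* (adjusted p = 0.046), *ATF3* (0.0025) and *DDIT3* (0.019) were called lower too, among 25 falls and 6 rises of members (13.8% and 36% of all genes), and with median-of-ratios scaling *ATF3* (adjusted p = 0.022) and *CEBPG* (0.0076) were.

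In shHOXB13 cells 4 members rose with CCS1477, against 29.2% of all genes, and 2 rose with median-of-ratios scaling, against 16.7%. *SESN2* went from 7.25, 7.70 and 6.63 FPKM to 13.4, 13.2 and 13.3, without overlap (log2 0.88 ± 0.15, adjusted p = 0.00065). *DDIT4* went from 68.5, 74.6 and 65 FPKM to 101, 105 and 93.7 (log2 0.53 ± 0.17, adjusted p = 0.025). *PSPH* went from 7.66, 7.52 and 6.73 FPKM to 10.4, 8.96 and 9.76 (log2 0.41 ± 0.12, adjusted p = 0.017). The same 3 genes fell with CCS1477 in shCtrl cells, *SESN2* by 0.84, *DDIT4* by 0.88 and *PSPH* by 0.57. The *DDIT4* and *PSPH* rises were each lost without shHOXB13 CCS1477 replicate 1 (adjusted p = 0.065 and 0.067) or shHOXB13 DMSO replicate 3 (adjusted p = 0.079 and 0.064), *DDIT4* also without CCS1477 replicate 2 (0.076) or DMSO replicate 1 (0.062). *ALDH1L2*, at under 0.22 FPKM, was the remaining rise.

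The largest falls with CCS1477 in shHOXB13 cells were those of *SLC1A5*, from 24, 26.5 and 24.6 FPKM to 10.8, 10.2 and 11.9 (log2 −1.18 ± 0.12, adjusted p = 2.3e-05), and *PYCR1*, from 79.7, 83.7 and 72.8 FPKM to 39.9, 39 and 34.8 (log2 −1.05 ± 0.08, adjusted p = 2.8e-06). *SLC7A11* fell further from its low level, from 2.06, 2.43 and 2.06 to 0.991, 0.936 and 1.23 FPKM (log2 −0.99 ± 0.26, adjusted p = 0.01). The 2 sets of libraries were apart for each of these genes. Of the tRNA genes 9 of 10 fell, from −0.68 for *IARS* and *YARS* to −0.24 for *XPOT*, with *SARS* at −0.20 (adjusted p = 0.068). *SLC7A5*, with 6 to 11 reads in the CCS1477 libraries, fell by 1.09 but lost the call without any 1 of the 6 libraries (adjusted p = 0.055 to 0.09), as did *MARS* (0.061 to 0.11), and *XPOT* lost it without any but DMSO replicate 3.

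The difference between the CCS1477 effects in the 2 backgrounds was tested as an interaction. For 24 members the CCS1477 effect was higher, that is less negative or positive, in shHOXB13 than in shCtrl cells, and for 0 it was lower (9.1% and 4.15% of all genes), with a median of 0.76 over members and 0.13 over all genes. The 2 effects have no library in common. *SLC6A9* had the largest difference (log2 2.04 ± 0.37, adjusted p = 0.0051), with 3.08, 2.33 and 2.64 FPKM under DMSO and 2.80, 3.00 and 3.36 under CCS1477 in shHOXB13 cells beside its fall in shCtrl cells. *SESN2* (1.72 ± 0.21, adjusted p = 0.00054), *TRIB3* (1.65 ± 0.23, adjusted p = 0.0011) and *SLC1A4* (1.55 ± 0.26, adjusted p = 0.0033) followed. *TRIB3* still fell in shHOXB13 cells, from 15.2, 16 and 13.4 FPKM to 9.75, 9.11 and 9.39, by 0.65. *SLC1A4* was at 1.84, 2.10 and 2.26 and 2.74, 2.53 and 2.31 FPKM there and did not pass.

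For *ATF4* itself the difference did not pass (0.57 ± 0.31, adjusted p = 0.25). By role, the interaction passed for 5 of 7 regulators, 3 of 5 feedback genes, 0 of the 2 secreted and receptor genes, 6 of 11 enzymes, 5 of 7 transporters and 5 of 10 tRNA genes. With median-of-ratios scaling 21 members were higher and 2, *PYCR1* (−0.49) and *WARS* (−0.44), were lower, against 6.26% and 8.39% of all genes. Of the 24 calls, 18 were kept whichever library was left out, and those of *ATF3*, *CEBPB*, *MARS*, *NUPR1*, *SLC7A11* and *SLC7A1* were not. *SLC7A1* lost its call without any of the 12 libraries except shCtrl CCS1477 replicate 3 (adjusted p = 0.05 to 0.096), *CEBPB* without any except that library and shCtrl DMSO replicate 1 (0.056 to 0.099), and *NUPR1* only without shHOXB13 CCS1477 replicate 3 (0.053). *ATF3* lost it without any of 8 libraries (0.053 to 0.071) and *SLC7A11* without any of 6 (0.051 to 0.063), both lists holding replicates 2 and 3 of shCtrl DMSO, 1 and 3 of shHOXB13 DMSO and 1 and 3 of shHOXB13 CCS1477. *MARS* lost it without replicate 2 or 3 of shCtrl DMSO or replicate 1 of shHOXB13 CCS1477 (0.052 to 0.062). Without shCtrl replicate 1 of both treatments, 23 members were higher and 0 lower.

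**Figure D3:**
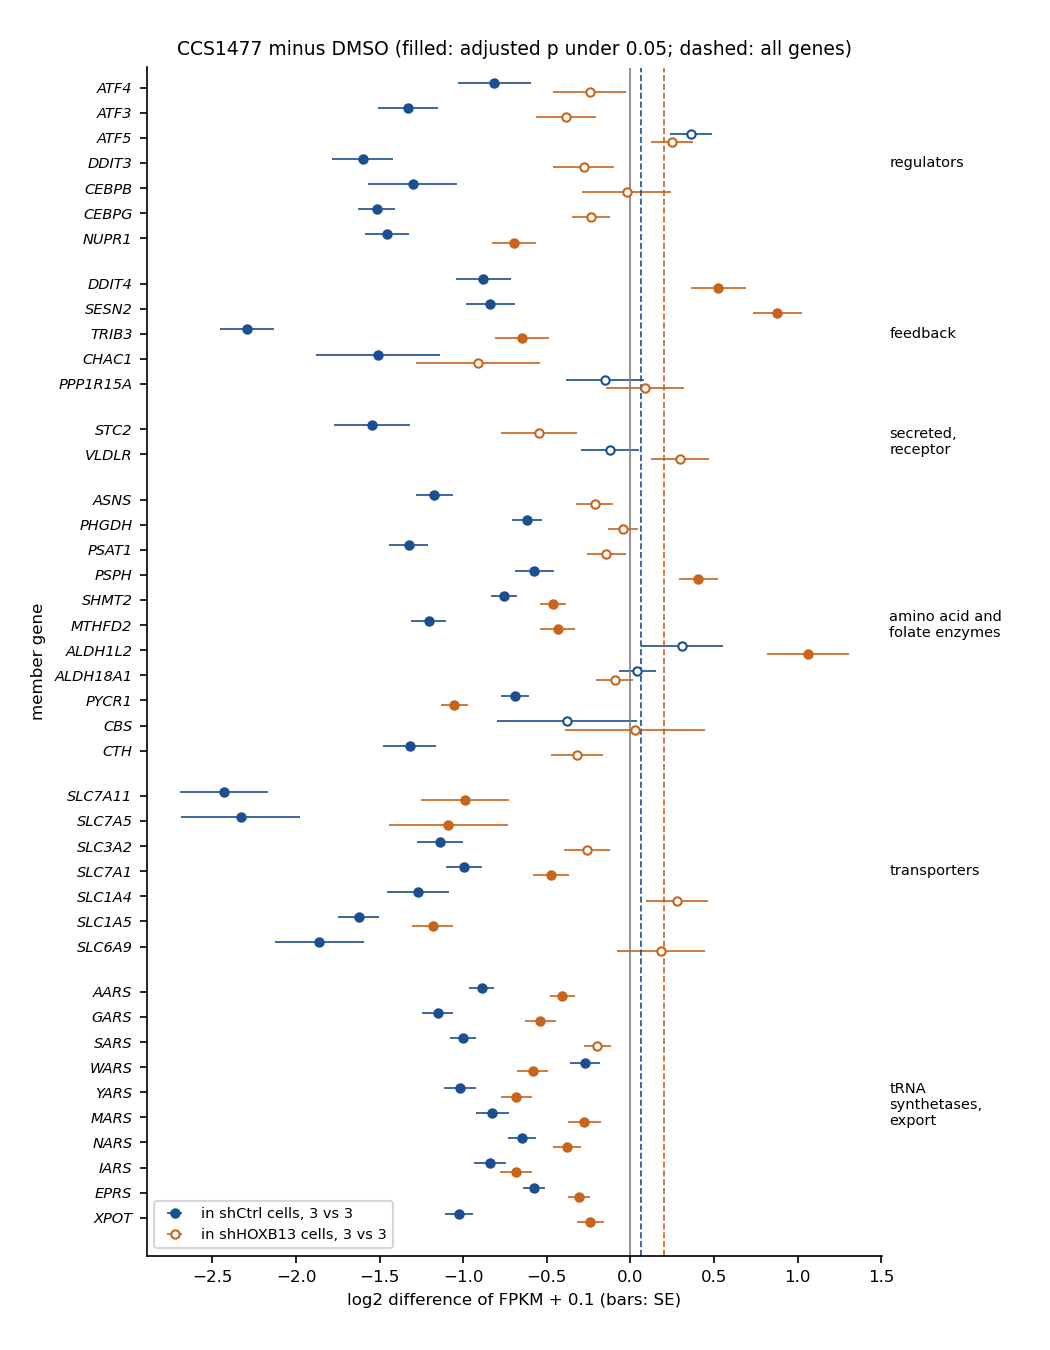
Log2 effect of CCS1477 against DMSO for each member in shCtrl cells (horizontal axis) and in shHOXB13 cells (vertical axis), coloured by role, with the line of equal effect. Of the 42 members, 38 lie above that line, and *SESN2* (−0.84 and 0.88) and *DDIT4* (−0.88 and 0.53) lie on opposite sides of 0.

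With both perturbations, shHOXB13 cells under CCS1477 held the median member at 27.3% of the shCtrl DMSO mean, compared with 32.6% for shHOXB13 alone and 49.6% for CCS1477 alone. *SLC7A11* was at 1.68%, *CHAC1* at 4.08%, *MTHFD2* at 6.43% and *STC2* at 6.63% of that mean. *ATF4* stood at 20.4%, and 33 members were under 50%. *ATF5* (107%) and *VLDLR* (152%) were at or above it.

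With a hairpin against p300 or CBP alone, few members were called in the fit of all groups. In shCtrl cells shp300 gave 0 rises and 0 falls under limma (5 members had an unadjusted p under 0.05), against 1.05% and 2.19% of all genes. In shHOXB13 cells shp300 gave 2 rises, *SLC6A9* (0.67 ± 0.16, adjusted p = 0.028) and *SLC3A2* (0.61 ± 0.15, adjusted p = 0.03), and 2 falls, *CTH* (−0.78 ± 0.21, adjusted p = 0.046) and *ASNS* (−0.59 ± 0.13, adjusted p = 0.023), against 3.5% and 3.44% of all genes. *SLC6A9* went from 7.70 and 8.62 FPKM to 13.7 and 12.4, and *ASNS* from 39.4 and 35.4 to 26.1 and 23.4, each without overlap. Without overlap too, *ATF3* went from 32.8 and 34.5 FPKM to 57.8 and 52.3, and *DDIT3* from 30.6 and 32.5 to 55.1 and 60.1. Both were called only when just the compared groups were fitted (log2 0.71, adjusted p = 0.033, and 0.87, 0.019). That fit also called *PPP1R15A* (0.92, 0.02) and *CEBPB* (0.79, 0.045), and gave 5 rises and 0 falls of members (487 and 447 of 15467 genes). *CEBPB* was called with median-of-ratios scaling too, and *PPP1R15A* and *CEBPB* with FPKM rescaled to a common sum. The shCBP hairpin gave 2 falls in shHOXB13 cells, *PSPH* (−0.77 ± 0.14, adjusted p = 0.037) and *SLC7A1* (−0.70 ± 0.13, adjusted p = 0.037), and 0 rises, against 1.13% and 0.402% of all genes. Of these 6 calls, 0 were kept in every fit that left out a library, shHOXB13 replicate 1 among them (*SLC6A9*, adjusted p = 0.18, and *PSPH*, 0.24). The number of shp300 calls changed to 4 rises and 2 falls with FPKM rescaled to a common sum (6.6% and 3.5% of all genes).

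In shCtrl cells shCBP gave 3 rises and 4 falls (4.14% and 8.09% of all genes), which became 6 and 3 with FPKM rescaled to a common sum (7.12% and 5.65%). *SLC1A4* rose from 7.67 and 7.86 FPKM to 14.3 and 15.7 (log2 0.94 ± 0.16, adjusted p = 0.0046), and *SLC6A9* from 21.9 and 23.4 to 38.6 and 39.9 (log2 0.79 ± 0.16, adjusted p = 0.01). *YARS*, for tyrosine, fell from 85.9 and 73.7 FPKM to 34.5 and 39.8 (log2 −1.10 ± 0.16, adjusted p = 0.0025). The control and shCBP replicates did not overlap for these genes. *PSAT1* and *PSPH* fell by 1.08 and 0.89, *SLC7A1* by 0.50, and *ALDH18A1* rose by 0.75. Without shCtrl replicate 1, the calls of *ALDH18A1*, *PSAT1*, *SLC6A9* and *SLC7A1* were lost (adjusted p = 0.062, 0.059, 0.089 and 0.097), and each was lost without at least 1 other library too. Neither single hairpin had an effect on a member that differed between backgrounds in limma (0 calls each, with 8 members for shp300 and 6 for shCBP at an unadjusted p under 0.05, against 0.498% higher and 0.356% lower and 0.243% higher and 0.362% lower of all genes).

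With both hairpins in shHOXB13 cells, 4 members rose and 6 fell relative to shHOXB13 (10.4% and 16.2% of all genes), with a median of 0.02 over members and 0.00 over all genes. The 2 replicates of this group disagreed over the stress-inducible genes. *ATF4* was at 85.5 and 78.2 FPKM in shHOXB13 cells and at 114 and 88.9 with shp300/CBP added (log2 0.30 ± 0.15, adjusted p = 0.18). This *ATF4* rise passed with median-of-ratios scaling (0.37, adjusted p = 0.028) and with FPKM rescaled to a common sum (0.54, adjusted p = 0.0028). *ATF3* was at 32.8 and 34.5 and 159 and 29.2 FPKM (log2 1.02 ± 0.52, adjusted p = 0.17). *DDIT3* was at 30.6 and 32.5 and 185 and 33.6 FPKM (log2 1.32 ± 0.52, adjusted p = 0.082). Replicate 1 was thus several-fold above replicate 2 for *ATF3* and *DDIT3*, and replicate 2 lay close to the shHOXB13 libraries.

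Of the 40 members with a mean of at least 1 FPKM, 28 were higher in replicate 1 than in replicate 2 of that group. Over 2-fold higher in replicate 1 were 10 members, and 0 were over 2-fold higher in replicate 2. These 10 were all 5 feedback genes, both secreted and receptor genes, the regulators *ATF3* and *DDIT3*, and *SLC7A5*, with 0 of the synthesis enzymes and 0 of the tRNA genes among them. *DDIT4* was at 122 and 27.3 FPKM in the 2 replicates, *TRIB3* at 48.1 and 15.8 and *SESN2* at 33.8 and 11.2. In the other 7 knockdown groups 0 members differed over 2-fold between replicates. In contrast, *ASNS* (29.6 and 31.4 FPKM), *PHGDH* (67.2 and 68.3) and *PSAT1* (47.5 and 42.3) were close in the pair. The enzyme gene *SHMT2* (68.1 and 39.6) and the synthetase gene *AARS* (98.3 and 55.8) were less so. Replicate 1 held 11727496 mapped reads with 61.6% in genes and replicate 2 held 8176869 with 52.7%, the lowest share of the series. Of 4 immune markers *CD68* (40.2 and 13.8 FPKM) and of 4 fibroblast markers *COL1A1* (17.8 and 5.41) were also higher in replicate 1, with *PTPRC* and *COL3A1* at or below 0.0150 and 0.171 in the pair, and the part of these differences in the result was not tested.

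**Figure D4:**
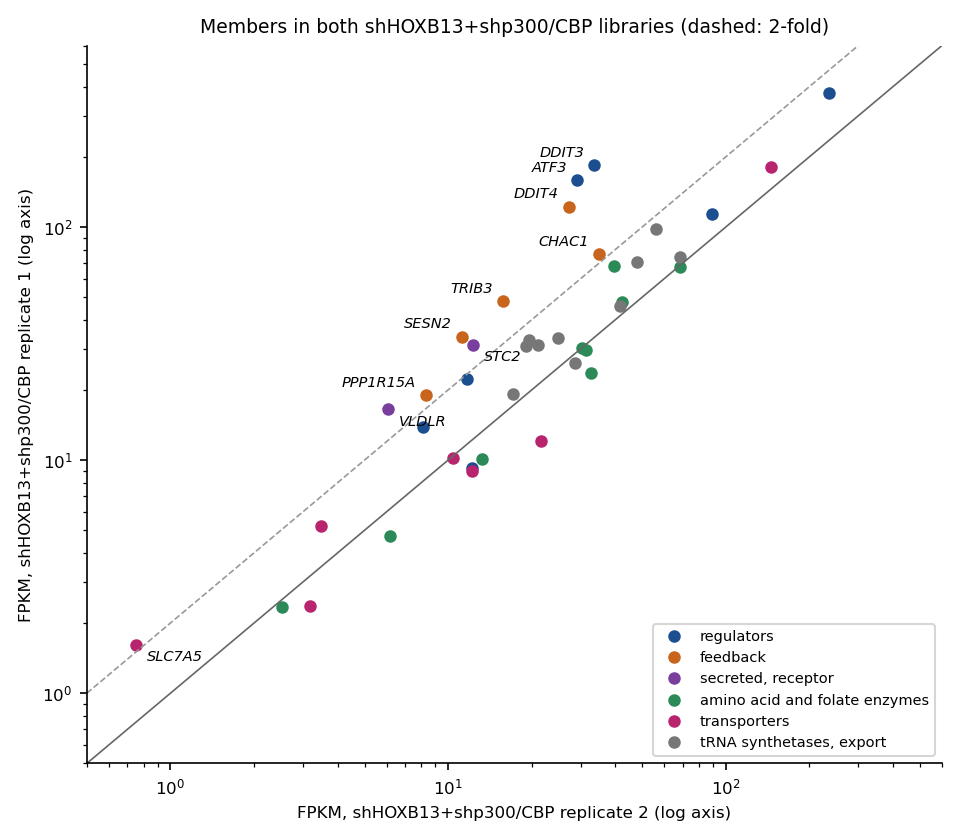
FPKM of members in replicate 1 (vertical axis) against replicate 2 (horizontal axis) of shHOXB13 with shp300/CBP, on log axes, coloured by role, with the line of equality and 2-fold limits. There, 10 members lie over 2-fold above the line, *DDIT3* at 185 against 33.6 FPKM and *ATF3* at 159 against 29.2 FPKM among them. The enzymes and tRNA genes shown lie within the 2-fold limits, *AARS* at 98.3 against 55.8 FPKM among them.

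The calls that rested on this pair changed accordingly. Leaving out replicate 1 gave 3 rises and 12 falls relative to shHOXB13 (5.66% and 14.6% of all genes), with *DDIT4* (−0.76) and *TRIB3* (−0.68) now lower and *DDIT3* (0.09) and *ATF3* (−0.20) not called. Leaving out replicate 2 gave 12 rises and 8 falls (14.3% and 14.1%), led by *DDIT3* (2.55, adjusted p = 7.8e-06) and *ATF3* (2.24). In each of these fits the remaining library had no partner, and it was assumed to vary like the other groups. With both replicates, *PPP1R15A* rose from 4.76 and 4.72 FPKM to 18.9 and 8.31 (log2 1.39 ± 0.30, adjusted p = 0.006), a rise also called without replicate 1 (0.80) but not when only the compared groups were fitted (adjusted p = 0.082). *CHAC1* rose from 28.1 and 23.6 FPKM to 76.4 and 34.9 (log2 1.00 ± 0.28, adjusted p = 0.021), and *ATF5* and *CEBPB* by 0.72 and 0.71. The *CHAC1* and *CEBPB* rises were not called without replicate 1 (0.44 and 0.33) or without either shHOXB13 replicate, and the *ATF5* rise was not called without replicate 2 (0.52) or shHOXB13 replicate 2 (0.60). When only the compared groups were fitted, 0 members rose.

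The falls in shHOXB13 cells with shp300/CBP lay in genes whose replicates were close. *PYCR1* fell from 54.1 and 49.7 FPKM to 23.5 and 32.6 (log2 −0.90 ± 0.16, adjusted p = 0.0018). *SLC7A1* fell from 20.7 and 18 FPKM to 10.2 and 10.4 (log2 −0.89 ± 0.13, adjusted p = 0.00058). *WARS* fell from 31.8 and 31.8 FPKM to 19.2 and 17.1 (log2 −0.80 ± 0.14, adjusted p = 0.0016). None of these 3 genes overlapped between the groups. *EPRS*, for glutamate and proline, and *NARS* fell by 0.80 and 0.79, and *PSPH* by 0.55. Without shHOXB13 replicate 1 the *NARS* and *PSPH* falls were lost (adjusted p = 0.051 and 0.096), and that of *PSPH* also without replicate 1 of the shp300/CBP pair (0.086). With FPKM rescaled to a common sum the split was 9 rises and 5 falls, against 19.5% and 10.6% of all genes.

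In shCtrl cells, shp300/CBP gave 4 rises and 8 falls (8.9% and 9.4% of all genes), and the median member remained at 85.4% of the shCtrl mean. *ATF4* was at 223 and 199 FPKM in shCtrl and 167 and 157 with both hairpins, which did not pass (log2 −0.38 ± 0.15, adjusted p = 0.11). It passed as a fall with median-of-ratios scaling (−0.39, adjusted p = 0.026). *ATF3* and *DDIT3* were at 31.5 and 33.5 and at 49.2 and 60.9 FPKM and did not pass. *SLC1A4* rose from 7.67 and 7.86 FPKM to 17.8 and 20.0 (log2 1.27 ± 0.16, adjusted p = 0.00036). *CHAC1* rose from 47.3 and 49.3 FPKM to 96.7 and 108 (log2 1.08 ± 0.28, adjusted p = 0.02). The shp300/CBP libraries were above every shCtrl library for these genes. *ALDH18A1* and *SLC6A9* rose by 0.72 and 0.58.

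Among the falls in shCtrl cells, *SLC7A5* went from 3.28 and 3.86 FPKM to 1.17 and 1.31 (log2 −1.45 ± 0.29, adjusted p = 0.005). *TRIB3* went from 108 and 112 FPKM to 42.7 and 46.2 (log2 −1.30 ± 0.37, adjusted p = 0.028). *SHMT2* went from 135 and 136 FPKM to 73.7 and 69.2 (log2 −0.92 ± 0.23, adjusted p = 0.015). The replicates of the 2 groups did not overlap for these genes. *SLC7A1* (−0.69), *YARS* (−0.65), *PYCR1* (−0.63), *PSAT1* (−0.58) and *PSPH* (−0.53) fell by less. *DDIT4* went from 162 and 156.5 FPKM to 65.3 and 71.5 and was not called in the fit of all groups. It was called when only the compared groups were fitted (log2 −1.22, adjusted p = 0.0012). That fit gave 8 rises and 13 falls of members (2056 and 2240 of 15581 genes). Leaving out a library took the number of calls to 2 rises and 2 to 3 falls, and *SLC1A4*, *SLC7A5* and *SLC7A1* were the 3 of the 12 calls kept in every such fit, while FPKM rescaled to a common sum gave 7 rises and 6 falls (13.5% and 7.98% of all genes).

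The shp300/CBP effect differed between the 2 backgrounds for 4 members (2.54% of all genes higher and 5.59% lower in shHOXB13 than in shCtrl cells). *SLC1A4* rose in shCtrl cells and was at 3.83 and 3.43 FPKM in shHOXB13 and 2.36 and 3.17 with shp300/CBP added, a difference of −1.67 ± 0.22, adjusted p = 0.0018. *WARS* (−0.92 ± 0.19, adjusted p = 0.016) and *EPRS* (−0.84 ± 0.22, adjusted p = 0.039) were also lower in that contrast, and *SLC7A5* (1.67 ± 0.41, adjusted p = 0.028) was higher. For *ATF4* the difference was 0.68 ± 0.22, adjusted p = 0.08. It passed with median-of-ratios scaling (0.76, adjusted p = 0.012) and with FPKM rescaled to a common sum (0.79, adjusted p = 0.0074). The split depended on the pair described above, with 0 higher and 3 lower without replicate 1 of shHOXB13 with shp300/CBP (1.54% and 4.99% of all genes) and 13 higher and 3 lower without replicate 2 (6.97% and 6.65%), where *ATF4* passed (0.86, adjusted p = 0.025). The *SLC1A4* difference was called in every such fit, whereas those of *SLC7A5*, *EPRS* and *WARS* were lost without any of 7 (adjusted p = 0.051 to 0.1), 6 (0.074 to 0.14) and 4 libraries (0.055 to 0.069) of the 8. With median-of-ratios scaling 3 members were higher and 6 lower (4.17% and 6.22% of all genes).

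Genes around the pathway were read from further lists, whose counts stand beside shares of all genes of 30.8% lower and 8.45% higher with *HOXB13* knockdown, 42.4% and 15.2% under DMSO, 9.91% and 15.4% with CCS1477 in shCtrl cells, and 10.4% and 29.2% with CCS1477 in shHOXB13 cells. Of 13 genes for eIF2 kinases, eIF2 and its exchange factor, 1 rose and 4 fell with *HOXB13* knockdown, and 4 rose and 4 fell under DMSO (median log2 −0.21 and −0.01, where the all-gene median was −0.33 in each). *EIF2AK4*, which encodes the amino acid sensor GCN2, fell in both series (−1.12 ± 0.15, adjusted p = 0.00013), by 1.15 under DMSO, as did *IMPACT* (−1.53 ± 0.19, adjusted p = 0.0001), an inhibitor of GCN2, and *EIF2S1* (−0.73 ± 0.16, adjusted p = 0.004), the phosphorylated subunit of eIF2, fell in the knockdown series. With CCS1477 in shHOXB13 cells *EIF2AK4* rose by 0.65.

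Among 27 further ATF4 targets, 12 fell and 3 rose in the knockdown series (30.8% and 8.45% of all genes), 16 fell and 3 rose under DMSO (42.4% and 15.2%), and 16 fell and 0 rose with CCS1477 in shCtrl cells (9.91% and 15.4%) (medians of log2 differences −0.52, −0.67 and −0.68). *JDP2*, a basic leucine zipper repressor (−2.19 ± 0.16, adjusted p = 1.8e-06), and *SLC38A1*, a glutamine transporter (−1.68 ± 0.17, adjusted p = 2e-05), fell with *HOXB13* knockdown, whereas *GPT2*, the mitochondrial alanine aminotransferase, rose (1.07 ± 0.12, adjusted p = 4.3e-05) and fell with CCS1477 in shHOXB13 cells (−1.73 ± 0.08, adjusted p = 9.6e-08). Of 15 folate and one-carbon genes outside the list, 12 fell and 0 rose in the knockdown series and 11 fell and 0 rose under DMSO (medians −1.07 and −0.92). They included *TYMS* (−2.65 ± 0.31, adjusted p = 6.7e-05), the thymidylate synthase, *MTHFD1L* (−2.18 ± 0.17, adjusted p = 3.7e-06) and *MTHFD2L* (−2.15 ± 0.25, adjusted p = 6.2e-05), both mitochondrial folate enzymes. Of the 11 remaining cytosolic synthetases, 7 fell and 0 rose in the knockdown series (median −0.54), among them *DARS* (−2.17 ± 0.29, adjusted p = 0.00016), *TARS* (−1.20 ± 0.16, adjusted p = 0.00015) and *LARS* (−0.95 ± 0.14, adjusted p = 0.00032), for aspartate, threonine and leucine. Some of these synthetase genes, *TARS* and *LARS* among them, were also on the list of further ATF4 targets, so the counts of these lists are not independent.

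The chaperone arms of the unfolded protein response, which do not depend on ATF4 alone, gave mixed counts. Of 16 genes, 4 rose and 6 fell in the knockdown series, where 8.45% of all genes rose and 30.8% fell, and 8 rose and 3 fell under DMSO, against 15.2% and 42.4% (medians −0.19 and 0.25). *XBP1*, a transcription factor whose mRNA is spliced by IRE1, rose with *HOXB13* knockdown (2.05 ± 0.22, adjusted p = 2.9e-05) and fell with CCS1477 in shHOXB13 cells (−1.64 ± 0.13, adjusted p = 2.7e-06), where 13 of the 16 genes fell and 0 rose. NRF2 targets of the antioxidant response, a list that also holds *SLC7A11*, gave 1 rise and 3 falls of 14 in the knockdown series and 0 rises and 7 falls of 13 with CCS1477 in shHOXB13 cells. The glutathione synthesis genes *GCLM* (−1.12 ± 0.26, adjusted p = 0.0055) and *GCLC* (−0.66 ± 0.19, adjusted p = 0.016) fell in the knockdown series.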

How the data were processed

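RNA-seq of LNCaP cells was deposited as a gene-level table for each of 28 libraries. The authors aligned paired-end reads to GRCh38 with STAR 2.6.0, counted them per gene without regard to strand, and computed FPKM with an in-house script, and those deposited FPKM values were used here. In 475332 of 475360 values above 0 (100.0%) the FPKM came out as a whole number of reads, within 0.05 of a read, which gave the mapped reads of each library from 2296 short genes. Of 26475 genes listed, 32 had no value and were left out.

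Each series was fitted separately on log2(FPKM + 0.1) with limma 3.58.1 (trend) in R 4.3.3, with all its groups in the same fit and genes at 0.1 FPKM or more in at least 2 (knockdown) or 3 (CCS1477) libraries. A member was called at a Benjamini-Hochberg adjusted p below 0.05 over all genes tested in a comparison, with no fold threshold, and log2 differences on this scale understate the change of low genes. Values after ± are SD for FPKM and SE for log2 differences. The depth limits low members most, and *ALDH1L2*, *CBS*, *CTH*, *SLC7A5*, *CHAC1* and *PPP1R15A* had under 50 reads in at least 1 library. The authors tested counts pairwise with another tool, and their comparison results were not used. The code was tested on simulated data.

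Values by library were given for *ATF4*, *ATF3* and *DDIT3*, though not for all of them where a single p300 or CBP hairpin was compared. They were also given for up to 4 largest passing rises and 4 largest passing falls in each comparison. Companion genes were up to 3 with the smallest p of each list. Other members were named by role. The 42 members and all lists were chosen with earlier results of these data known. Alternatives were a pseudocount of 1 FPKM, no filter, median-of-ratios or summed-FPKM scaling, a replicate block, fits of the compared groups alone, and leaving out each library. Replicate numbers paired samples in shCtrl CCS1477 against DMSO alone, where libraries of the same number deviated together (correlations 0.325, 0.145 and 0.145), against −0.0681 to 0.0251 in the other comparisons. The libraries are biological replicates of a cell line, so p-values measure the spread between these cultures. Promoter windows were from RefSeq on GRCh38.p14. Values of some genes on the pathway and marker lists are not reported here.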

Additional observations from a re-analysis of the deposited data

Results flagged for a closer look

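Results stand here because an effect differed between the cell backgrounds by an interaction term in limma. The CCS1477 effect was higher in shHOXB13 than in shCtrl cells, on the log2 scale, by 2.04 for *SLC6A9*, 1.72 for *SESN2*, 1.65 for *TRIB3*, 1.55 for *SLC1A4*, 1.44 for *SLC7A11* and 1.41 for *DDIT4*. Regulators with such a difference were *DDIT3* (1.32), *CEBPG* (1.28), *CEBPB* (1.28), *ATF3* (0.94) and *NUPR1* (0.76). Enzymes were *PSAT1* (1.18), *CTH* (1.00), *PSPH* (0.98), *ASNS* (0.96), *MTHFD2* (0.77) and *PHGDH* (0.57), transporters were *SLC3A2* (0.88) and *SLC7A1* (0.52), and tRNA genes were *SARS* (0.80), *XPOT* (0.79), *GARS* (0.61), *MARS* (0.55) and *AARS* (0.48).

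The shp300/CBP effect differed between shHOXB13 and shCtrl cells by 1.67 for *SLC7A5*, −0.84 for *EPRS*, −0.92 for *WARS* and −1.67 for *SLC1A4*.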

How the results depend on the processing

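No member called higher or lower changed sign under an alternative, but 3 members not called were called on the other side of 0, *DDIT4* (from 0.32 to −0.76) and *TRIB3* (from 0.12 to −0.68) with shp300/CBP in shHOXB13 cells without replicate 1, and *NARS* under DMSO with median-of-ratios scaling (from −0.12 to 0.22). Falls with *HOXB13* knockdown numbered 30 to 36 over the alternatives in the knockdown series (28 to 32 with a library left out, 0 rises) and 34 to 38 under DMSO (35 to 37, 0 rises). Falls with CCS1477 in shCtrl cells numbered 34 to 36, and without a library 35, with 0 to 1 rises. In shHOXB13 cells CCS1477 gave 2 to 4 rises and 15 to 16 falls without a library, and the CCS1477 interaction 19 to 26 higher and 0 to 1 lower. Leaving out a library gave 0 rises and 0 to 1 falls for shp300 and 0 and 0 for shCBP in shHOXB13 cells, 1 to 12 rises and 4 to 12 falls for shp300/CBP in shHOXB13 cells, 0 and 0 for shp300, 1 to 2 and 2 to 4 for shCBP, and 2 and 2 to 3 for shp300/CBP in shCtrl cells. The interactions gave 0 and 0 for shp300 and for shCBP, and 0 to 13 higher and 1 to 3 lower for shp300/CBP. The cause of these moves was not tested.

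Median-of-ratios scaling gave 1 rise with *HOXB13* knockdown and 3 under DMSO, 2 rises and 29 falls with CCS1477 in shHOXB13 cells, 2 members lower in its interaction, 4 falls with shp300 and 10 with shp300/CBP in shHOXB13 cells, 6 rises with shCBP in shCtrl cells, and interactions of 1 higher and 1 lower for shp300 and 3 higher and 6 lower for shp300/CBP. Scaling to summed FPKM gave 1 rise with *HOXB13* knockdown, 4 with shp300 and 9 with shp300/CBP in shHOXB13 cells, 1 with shp300, 6 with shCBP and 7 with shp300/CBP in shCtrl cells, and 1 and 5 members higher in the shp300 and shp300/CBP interactions. Fitting only the groups compared gave 1 rise with *HOXB13* knockdown, 5 rises and 0 falls with shp300, 0 falls with shCBP and 0 rises with shp300/CBP in shHOXB13 cells, 7 falls with shCBP and 8 rises and 13 falls with shp300/CBP in shCtrl cells, and 0 higher in the shp300/CBP interaction. A pseudocount of 1 FPKM gave 1 fall with shp300 in shHOXB13 cells and 1 member lower in the shCBP interaction, and no filter gave 1 fall with shp300 in shHOXB13 cells.

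The replicate block gave 1 fall with shp300 and 0 with shCBP in shHOXB13 cells, 1 member lower in the CCS1477 interaction, 32 falls with *HOXB13* knockdown and 35 under DMSO, and otherwise counts within 1.5 times. Same-numbered libraries shared only a number outside the shCtrl CCS1477 comparison. With 2 alternatives chosen after seeing the data, CCS1477 in shCtrl cells gave 1 rise, both with a replicate block on the compared groups alone and without replicate 1 of shCtrl under DMSO and CCS1477. Without that replicate 35 members fell with CCS1477 in shCtrl cells, as did 1392 of 15613 genes. With *HOXB13* knockdown under DMSO 38 members fell and 0 rose, against 7007 and 2462 genes.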
